A study of Mus musculus with 8 samples.

Results

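The genes described here are 43 chromatin regulators, most of them mutated or rearranged in human leukaemia, and the question was whether open chromatin at their loci changed while PU.1 was restored in leukaemia cells and then knocked down again. They comprised 3 DNA methyltransferases, 3 TET dioxygenases, 6 Polycomb group genes, 6 histone methyltransferases, 5 histone demethylases, 3 corepressors, 5 histone deacetylases, 2 histone acetyltransferases, 6 nucleosome remodellers, and a last group of 4 made up of Phf6, Ctcf and the cohesin genes Rad21 and Stag2. A region counted as theirs when one of them was the nearest protein-coding gene within 100 kb, a distance of 0 being inside the gene. By that rule 316 of 68800 regions belonged to the 43 genes, all of which had at least 1. The median gene had 5 regions and the range was 1 to 34. Chd7 with 34, Arid1b with 32, Bcor with 28 and Hdac4 with 21 together held 115 of the 316. The region farthest from its gene lay 92045 bp from Bcor, and the nearest one outside the distance limit lay 100700 bp from Tet2.

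The cells were AML246, a mouse acute myeloid leukaemia line grown with interleukin-3, and accessible chromatin was profiled by ATAC-seq, which cuts and tags open DNA with a transposase. Dox (doxycycline, 0.1 µg/mL) was added at day 0 to restore PU.1 and removed at day 12, so that PU.1 was knocked down again. The 8 libraries were CD11b-high viable cells sorted at day 12 on Dox, total viable cells at day 0, before Dox, and at day 4, 8 and 12 on Dox, and total viable cells at 4, 8 and 12 days off Dox. Not given in the sources used here are the construct that controls PU.1, the genotype of the animal of origin and the number of clones in the line, from which all 8 libraries came. Each group held 1 library, so no spread between replicates could be given, no test between conditions was run, and every count below describes these libraries. Intervals are exact Clopper-Pearson 95% intervals that cover counting error only.

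PU.1 is the ETS-family transcription factor that directs myeloid differentiation, and its loss of function holds myeloid progenitors in an immature state. Chromatin regulators add, remove or read marks on DNA and histones, slide or evict nucleosomes, or shape chromosome loops. DNMT3A, TET2 and ASXL1 are mutated in early, pre-leukaemic clones, whereas KMT2A is a frequent partner of leukaemic gene fusions and BCOR, EZH2, PHF6 and cohesin mutations are typical of myeloid malignancies. The regulators act in nearly all cells, and the start of such a gene is typically a CpG-rich promoter that is open in most cell types.

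The gene starts are shown first, to sort the genes by whether a short window at the start was called in every library. A gene without a call in its window can still have one close by in all 8, as Eed and Kmt2c do below. RefSeq promoter windows of build GRCm38.p6 (also called mm10), 250 bases before to 50 bases after an annotated start, were at hand for 36 of the 43 genes, with 49 windows in all. No window was listed for Nsd1, Kdm6b, Hdac1, Chd7, Phf6, Rad21 or Stag2. Of the 36 genes, 22 (61.1%) had a window that overlapped a called region in all 8 libraries, against 42.5% of 17492 protein-coding genes, and 7 (19.4%) had a window called in none, against 48.0%. Those 7 were Arid1b, Bcor, Bcorl1, Eed, Hdac9, Kmt2c and Tet1. The median of the 49 windows held 29 CpG pairs, against 13 over 21263 windows of all genes. The 6 windows below are the ones that the results refer back to, each written 5′ to 3′ on the plus strand, where the starts of all 5 genes lie. Capitals mark GAGGAAG, the core of a PU.1-type site, or CCGGAAG, the core of a general ETS-type site, each searched on both strands (as CTTCCTC and CTTCCGG on the other strand). Dnmt3a (chr12:3806730-3807029, 46 CpG) is shown because its start lay in a region lost on Dox, and Kdm5b (chr1:134559928-134560227, 17 CpG) because its start was called in 3 libraries. Jmjd1c has an upstream start (chr10:67126838-67127137, 47 CpG) called in 5 libraries and a downstream start (chr10:67185500-67185799, 13 CpG) called in all 8. Dnmt3b (chr2:153649199-153649498, 30 CpG) and Asxl2 (chr12:3426607-3426906, 36 CpG) are shown as starts called in all 8.
Dnmt3a: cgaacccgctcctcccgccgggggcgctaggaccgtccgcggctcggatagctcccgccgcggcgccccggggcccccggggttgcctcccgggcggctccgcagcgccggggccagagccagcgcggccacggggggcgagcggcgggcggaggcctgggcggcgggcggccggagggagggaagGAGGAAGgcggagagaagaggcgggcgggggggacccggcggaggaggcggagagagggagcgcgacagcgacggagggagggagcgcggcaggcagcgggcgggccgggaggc
Kdm5b: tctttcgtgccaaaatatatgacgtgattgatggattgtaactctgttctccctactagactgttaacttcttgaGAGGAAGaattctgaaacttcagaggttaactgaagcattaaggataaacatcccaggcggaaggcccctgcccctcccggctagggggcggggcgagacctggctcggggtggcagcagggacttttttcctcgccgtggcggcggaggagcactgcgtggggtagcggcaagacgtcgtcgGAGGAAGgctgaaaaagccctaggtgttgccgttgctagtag
Jmjd1c upstream: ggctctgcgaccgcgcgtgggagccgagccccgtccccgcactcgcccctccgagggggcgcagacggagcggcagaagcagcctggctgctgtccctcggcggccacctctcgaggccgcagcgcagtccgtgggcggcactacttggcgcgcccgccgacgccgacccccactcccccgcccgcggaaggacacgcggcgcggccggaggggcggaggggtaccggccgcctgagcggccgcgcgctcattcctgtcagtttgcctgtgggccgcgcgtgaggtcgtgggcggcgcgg
Jmjd1c downstream: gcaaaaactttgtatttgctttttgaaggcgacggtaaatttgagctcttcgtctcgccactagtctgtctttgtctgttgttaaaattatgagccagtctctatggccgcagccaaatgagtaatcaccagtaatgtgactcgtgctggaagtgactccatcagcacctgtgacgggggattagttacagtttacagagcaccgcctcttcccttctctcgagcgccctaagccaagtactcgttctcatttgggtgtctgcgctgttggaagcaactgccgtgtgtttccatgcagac
Dnmt3b: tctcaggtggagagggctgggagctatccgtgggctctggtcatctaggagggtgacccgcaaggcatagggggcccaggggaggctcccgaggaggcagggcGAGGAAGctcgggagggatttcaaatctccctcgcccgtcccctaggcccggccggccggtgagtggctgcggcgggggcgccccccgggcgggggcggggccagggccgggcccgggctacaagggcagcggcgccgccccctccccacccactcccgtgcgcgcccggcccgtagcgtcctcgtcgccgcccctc
Asxl2: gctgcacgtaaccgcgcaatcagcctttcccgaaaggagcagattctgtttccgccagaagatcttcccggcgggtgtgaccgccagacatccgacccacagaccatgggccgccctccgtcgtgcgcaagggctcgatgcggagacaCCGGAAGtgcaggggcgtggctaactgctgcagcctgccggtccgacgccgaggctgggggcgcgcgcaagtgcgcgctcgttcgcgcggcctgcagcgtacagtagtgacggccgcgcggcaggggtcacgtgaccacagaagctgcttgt
GAGGAAG occurred in 9 of the 49 windows (18.4%), against 13.6% of all windows, in those of Arid1b, Bcorl1, Dnmt1, Dnmt3a, Dnmt3b, Ep300, Hdac7 and Kdm5b. CCGGAAG occurred in 5 windows (10.2%), against 11.6%, in those of Asxl1, Asxl2, Dot1l, Ncor1 and Smarca2. The longer GAGGAAGT, which contains GAGGAAG, occurred in 0 of the 49 and in 3.13% of all windows. A match describes letters in a window and no bound site.

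Each library was deposited as a list of peak summits, 31957 to 51175 per library, each with the authors' own score. A region is called open in a library that had a summit in it, and not open or not called otherwise, which is no proof of closed chromatin. The scores serve only to describe peaks within a list. The longest lists were those of day 8 and of 4 days off. List length moves with sequencing depth, which was not used here. In bulk cells, fewer cells with an open region and less access per cell cannot be told apart. Of marker genes for the labelled cell type, 5 of 8 listed as myeloid had a region open in all 8 libraries (Ptprc, Spi1, Cebpa, Fcgr3 and Itgam). Mpo with 1 region and Csf3r with 5 had none open in all 8, and Elane had no region. A region open in all 8 was found at 0 of 4 B cell genes, 2 of 4 T cell genes (Cd3e and Lck), 2 of 3 erythroid genes (Klf1 and Epor, while Gata1 had no region) and 1 of 5 non-blood genes (Gfap). Their part in the results below was not tested.

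The share of each library's open regions that belonged to the 43 genes hardly moved over the course. In CD11b-high cells 151 of the 316 regions were open, which was 0.455% (0.385 to 0.533) of that library's open regions with a gene. In total cells 171 were open at day 0 (0.507%), 158 at day 4 (0.480%), 224 at day 8 (0.515%, 0.450 to 0.587) and 149 at day 12 (0.462%). After withdrawal 234, 191 and 153 were open at 4, 8 and 12 days off, or 0.494%, 0.496% and 0.514%. All 8 intervals overlapped. Over all libraries the 43 genes held 0.489% of the 64638 regions with a gene. The 62 regions within 1 kb of a gene's end, called gene-end regions here because the gene table gives both ends of a gene alike, varied least: 39 were open in CD11b-high cells, 40, 34, 40 and 39 at day 0, 4, 8 and 12, and 42, 37 and 37 at 4, 8 and 12 days off. Of the other 254 regions, 112 were open in CD11b-high cells, 131, 124, 184 and 110 at day 0, 4, 8 and 12, and 192, 154 and 116 at 4, 8 and 12 days off. That was 43.3% (day 12) to 75.6% (4 days off), against 39.1% (12 days off) to 71.2% (4 days off) of all regions with a gene away from gene ends. At day 8 and at 12 days off the interval lay above the share of all such regions. Gene-end regions differed in the other direction: the day-4 list had 54.8% open (41.7 to 67.5), against 68.8% of all gene-end regions. The day-8 list had 64.5% (51.3 to 76.3), against 76.6%. Off Dox, the 4-day list had 67.7% (54.7 to 79.1), against 80.3%, and the 8-day list 59.7% (46.4 to 71.9), against 74.4%. In the remaining libraries the gene-end interval included the share of all gene-end regions. The high counts of the other 254 regions were in the 2 longest lists.

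A stable set of these regions was called throughout. Of the 316, 87 (27.5%, 22.7 to 32.8) were open in all 8 libraries, against 27.9% of all regions with a gene, and 99 (31.3%, 26.3 to 36.8) were open at day 0, 4, 8 and 12, against 32.5%. A further 74 (23.4%) were open in 1 library, against 23.1%. At gene ends 28 of 62 (45.2%) were open in all 8, against 54.9% of all gene-end regions, and elsewhere 59 of 254 (23.2%) were, against 19.9%. Of the 43 genes, 40 had at least 1 region open in all 8. The exceptions were Kdm5b, Hdac9 and Ctcf.

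**Figure D1:**
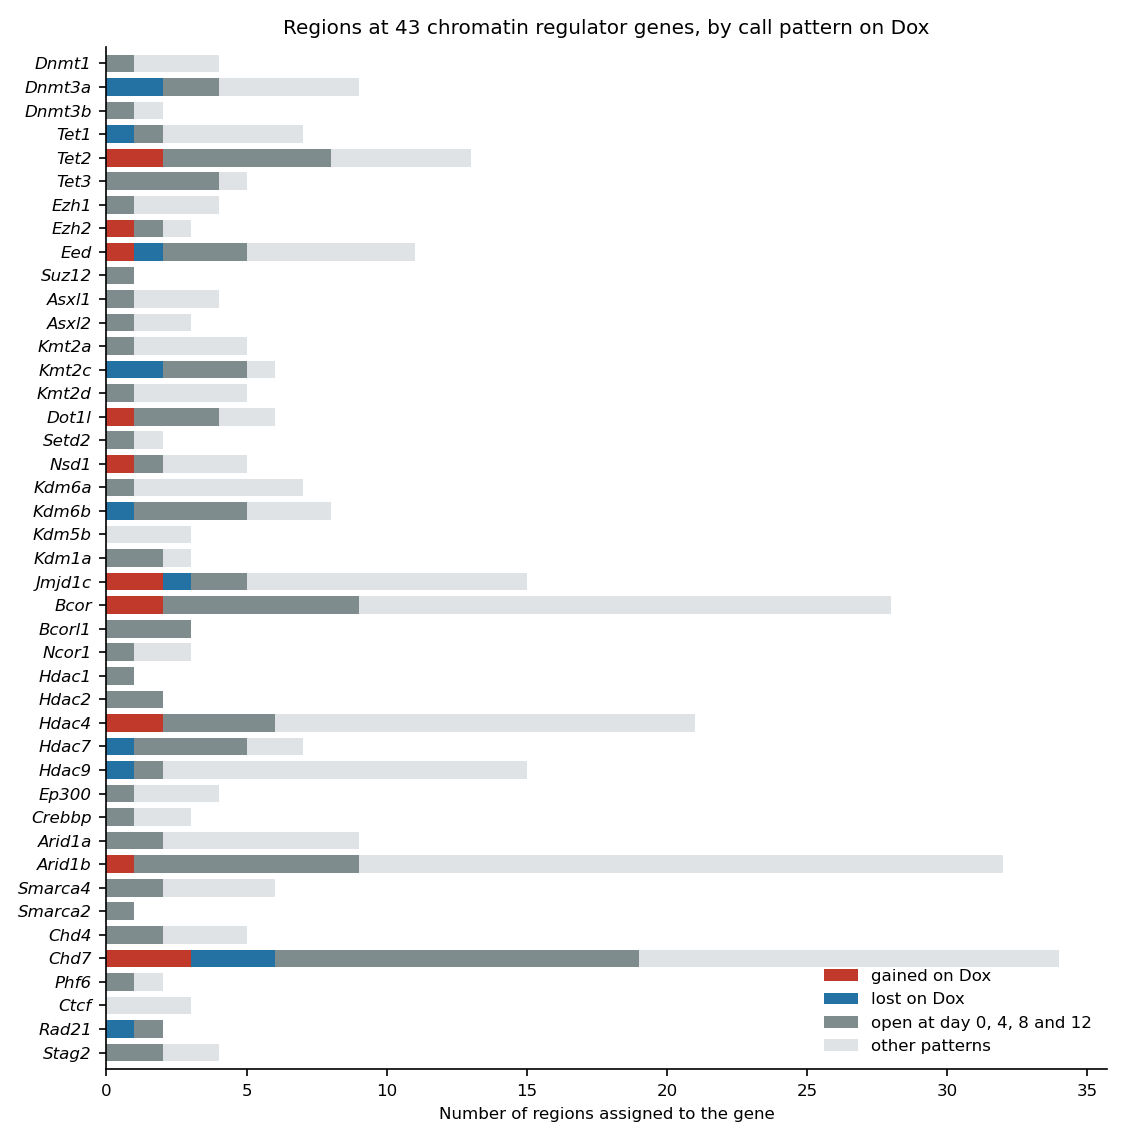
Number of regions (x axis) assigned to each of the 43 genes (y axis), split into regions gained on Dox, lost on Dox, open at all 4 times on the course from day 0 to day 12, and other patterns. At 26 of the 43 genes no region was gained or lost, and Chd7, Arid1b, Bcor and Hdac4 hold 115 of the 316 regions.

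The first comparison concerned the 12 days of PU.1 restoration, and asked which regions of these genes became called or ceased to be. Gained regions had no day-0 summit and a summit in each of the 3 later lists of total cells, and lost regions had a day-0 summit and none in those 3. Gains fell on 10 genes and losses on 10, of which Chd7, Eed and Jmjd1c had both, and 26 genes had neither. Of the 316 regions, 16 (5.06%, 2.92 to 8.09) were gained, against 4.86% of all regions with a gene, and 14 (4.43%, 2.44 to 7.32) were lost, against 5.49%. Both shares lie near the background, so the counts are not a result about these genes. The gained regions were 3 at Chd7, 2 each at Hdac4, Tet2, Jmjd1c and Bcor, and 1 each at Ezh2, Eed, Dot1l, Nsd1 and Arid1b. The lost regions were 3 at Chd7, 2 each at Dnmt3a and Kmt2c, and 1 each at Tet1, Eed, Jmjd1c, Kdm6b, Hdac9, Rad21 and Hdac7. At gene ends 1 of 62 was gained and 4 of 62 (6.45%, 1.79 to 15.7) were lost, against 1.88% and 3.30% of all gene-end regions. The 4 were the 2 of Kmt2c and those of Tet1 and Rad21. Elsewhere 15 of 254 (5.91%) were gained and 10 of 254 (3.94%) lost, against 5.74% and 6.14%. Measured from the annotated starts instead, 0 of 12 gained regions and 4 of 9 lost regions lay within 1 kb of a start, at the genes that have one in the promoter table. Over all genes with such a start, 7.63% of 2451 gained regions and 14.3% of 2797 lost regions did. Of 63 regions of these genes within 1 kb of a start, 30 (47.6%) were open in all 8 libraries, against 58.0% of all such regions, and of 197 farther ones, 34 (17.3%) were, against 18.8%. The 4 lost regions within 1 kb of a start were the 2 of Kmt2c, that of Tet1 and 1 of Dnmt3a. Those of Tet1 and Dnmt3a had a later summit within 1 kb. That of Tet1 and 1 of Kmt2c were not kept with each list cut to the length of the shortest. No interval was computed for the shares near a start.

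Lost regions rested on weak calls. Their day-0 scores ran from 2.32 to 9.34 with a median of 4.87, against a median of 5.45 for all lost regions with a gene. The median day-12 score of the gained regions was 9.00, against 7.99 for all gained regions with a gene. With each list cut to the length of the shortest, 14 of the 16 gained and 9 of the 14 lost regions kept their class. Separately, regions with an opposite summit within 1 kb were set aside (from day 0 for gained, from day 4, 8 or 12 for lost). This left 13 of the 16 gained and 7 of the 14 lost regions. Over all regions with a gene it left 2806 of 3144 gained and 2883 of 3547 lost ones. The gained share was then 4.11%, against 4.34% of all regions with a gene. The lost share was 2.22% (0.895 to 4.51), against 4.46%, which lay just inside the interval. Equal list length and no opposite summit together left 11 gained and 3 lost, the lost ones lying in Chd7, Kmt2c and Jmjd1c. Only 3 gained regions had a score of at least 10 at day 4, 8 and 12, and these lay at Hdac4, Tet2 and Jmjd1c.

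**Figure D2:**
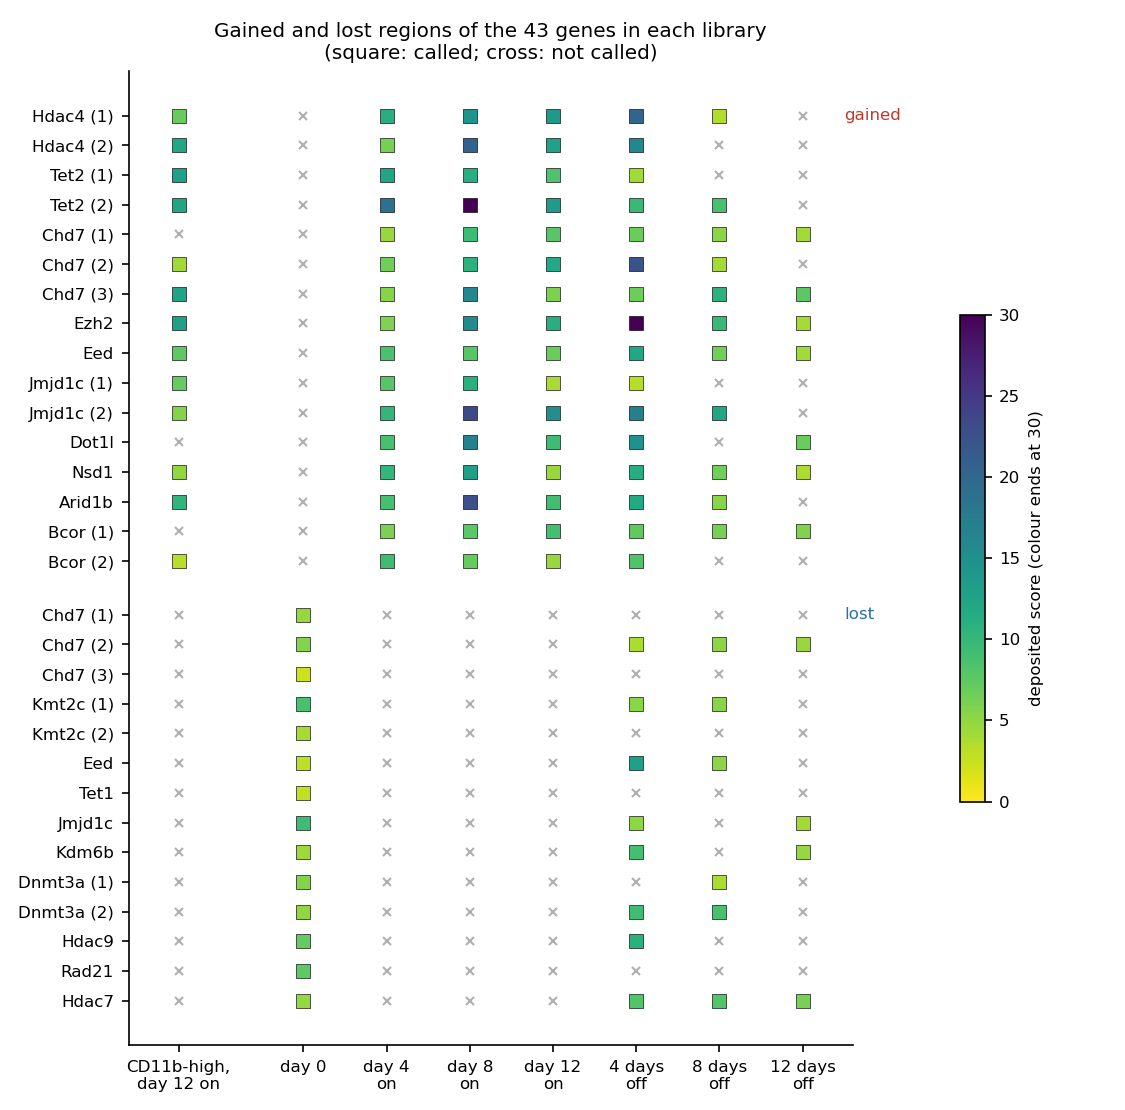
The 16 gained and 14 lost regions (rows, by gene, numbered along the chromosome where a gene has several) in each of the 8 libraries (columns). A square marks a call and its colour the deposited score, a cross marks no call. All 16 gained regions were still called at 4 days off and none of the 14 lost regions was called in CD11b-high cells.

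Among the TET dioxygenases, which oxidise methylated cytosine, Tet2 held 13 regions, of which 5 were open in all 8 libraries, 2 were gained and 0 were lost. The gained region upstream of the gene (chr3:133582842-133583454, 38012 bp from it) was not called at day 0. It scored 12.3 in CD11b-high cells, 18.9, 32.0 and 13.7 at day 4, 8 and 12 on Dox, and 9.81 and 8.70 at 4 and 8 days off, and was not called at 12 days off. It was thus called in every library but day 0 and 12 days off. The second gained region (chr3:133463291-133463633) lay 215 bp beyond the far end of the gene. It scored 12.8 in CD11b-high cells, 12.2, 11.2 and 8.37 at day 4, 8 and 12, and 4.20 at 4 days off, and was not called at day 0 or at 8 and 12 days off. The start of Tet2, in a region 17 bp from the annotated base, was open in all 8. Tet1 had 7 regions, 1 of them open in all 8 and 1 lost, a weak day-0 call of 2.81 that lay 683 bp inside the gene with a later summit 516 bp away. Tet3 had 5 regions, 4 of them open in all 8, and no gain or loss.

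The DNA methyltransferases had 15 regions, 0 gained and 2 lost, both at Dnmt3a, the de novo methyltransferase most often mutated in acute myeloid leukaemia. The first lost region (chr12:3806835-3807158) covered the annotated start printed above, with its midpoint 16 bp from it, and scored 5.60 at day 0 and 3.82 at 8 days off. The second (chr12:3808090-3808743), 1256 bp into the gene, scored 4.92 at day 0, 9.22 at 4 days off and 8.73 at 8 days off. Neither was called in CD11b-high cells or at day 4, 8 or 12. Between them another region (chr12:3807459-3807849) was called at day 0, day 4 and 12 days off only. A region just upstream of the start (chr12:3806218-3806570) was open in all 8 libraries, with scores of 21.2 in CD11b-high cells and 11.0 to 31.1 in the others. The stretch with calls at the Dnmt3a start was therefore wider at day 0 than in the 3 later lists, while its strongest summit stayed, and the nearest later summits were 576 bp and 725 bp from the 2 lost regions. Dnmt3b, the other de novo enzyme, had its start called in all 8 (4.82 in CD11b-high cells, 5.69 to 18.7 in the others), and so did Dnmt1, the maintenance enzyme, whose start region scored 25.4 in CD11b-high cells and 28.7 to 60.7 in the others.

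At the Polycomb group genes, which form or assist the complexes that write and erase repressive histone marks, 26 regions held 2 gained and 1 lost. Ezh2, the catalytic subunit of Polycomb repressive complex 2, had 3 regions. Its gained region (chr6:47532400-47532861) lay inside the gene 2356 bp from the far end, and scored 12.9 in CD11b-high cells, 5.86, 15.8 and 11.2 at day 4, 8 and 12, and 40.5, 9.82 and 4.03 at 4, 8 and 12 days off. It was missing at day 0 alone. The Ezh2 start region was open in all 8, at 23.8 in CD11b-high cells and 25.0 to 67.4 in the others, and another region, 520 bp after the start, was called only in the library of CD11b-high cells (12.2) and in that of 12 days off (15.5). Eed, the subunit of the same complex that binds the repressive mark, had 11 regions, most of them in the stretch before its start. One of these, 60893 bp before the start (chr7:90041680-90042058), was gained and was also called at 4, 8 and 12 days off (12.1, 6.47 and 4.16), although a day-0 summit lay 745 bp away. Another, 26493 bp before it (chr7:90007286-90007652), was lost, with 3.05 at day 0, 12.8 at 4 days off and 5.17 at 8 days off. No call reached the Eed promoter window, but the region centred 388 bp after the start was open in all 8, at 29.5 in CD11b-high cells and 30.6 to 74.7 in the others. Suz12, another core subunit, had a single region, at its start and open in all 8. The starts of Ezh1, Asxl1 and Asxl2 were also open in all 8, and none of these 4 genes had a gain or loss.

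The histone methyltransferase genes had 29 regions with 2 gained and 2 lost. Both losses were at Kmt2c, a writer of enhancer-associated histone methylation. They lay 633 bp (chr5:25497991-25498309, 8.69 at day 0, 5.28 at 4 days off and 5.29 at 8 days off) and 244 bp (chr5:25498389-25498689, 3.96 at day 0 only) after the start. A region 828 bp outside the gene on the side of the start (chr5:25499468-25499899) was open in all 8, at 27.7 in CD11b-high cells and 17.9 to 51.1 in the others. As at Dnmt3a, regions at or just inside the start were lost while the region before the start was called in all 8. At Dnmt3a, however, the region between the 2 lost ones was still called at day 4. The weaker of the 2 Kmt2c losses was not kept with lists of equal length. Dot1l, a methyltransferase that MLL-fusion leukaemias depend on, gained a region 2742 bp inside the gene (chr10:80757785-80758105). It scored 8.73, 17.0 and 9.40 at day 4, 8 and 12, 14.7 at 4 days off and 6.88 at 12 days off, and was not called in CD11b-high cells, at day 0 or at 8 days off. Nsd1, which is fused in some leukaemias, gained a region inside the gene, 2432 bp from its nearer end (chr13:55212034-55212394), that was also called at 4, 8 and 12 days off (11.3, 6.54 and 3.66), with a day-0 summit 510 bp away. Kmt2a, Kmt2d and Setd2 had no gain or loss. The starts of Kmt2a and Setd2 were open in all 8, and the Kmt2d start overlapped a call in 1 library. A region at -929 bp from the Kmt2d start (chr15:98871828-98872440), thus before it, was open in all 8, at 9.31 in CD11b-high cells and 6.89 to 52.8 in the others.

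**Figure D3:**
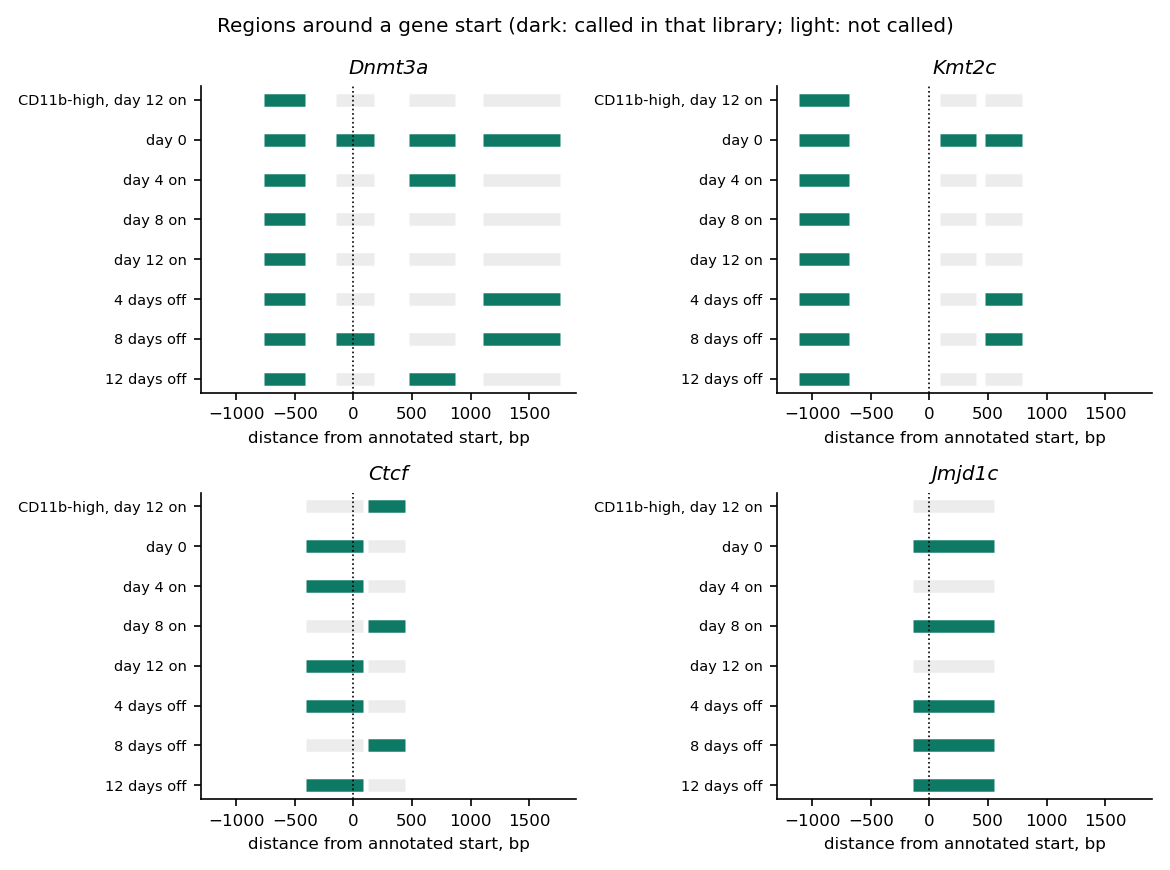
Regions within reach of an annotated gene start (x axis, distance in bp, the dotted line being the start) at Dnmt3a, Kmt2c, Ctcf and the upstream start of Jmjd1c, 1 row per library. Dark bars were called in that library and light bars were not. At Dnmt3a and Kmt2c a region before the start was called in all 8 libraries and regions just inside the gene came and went, and at Ctcf calls alternated between 2 adjoining regions.

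Among the histone demethylases, with 36 regions, Jmjd1c had 15 regions, 2 gained and 1 lost. It encodes a JmjC-domain protein on which several leukaemia models depend. Some 2 kb apart inside the gene, a lost and a gained region lay next to each other, the gained one 2050 bp from the nearest day-0 summit. The lost one (chr10:67223978-67224294) scored 9.34 at day 0, 5.11 at 4 days off and 4.14 at 12 days off. The gained one (chr10:67226039-67226349) scored 5.55 in CD11b-high cells, 10.3, 23.4 and 15.2 at day 4, 8 and 12, and 17.3 and 12.2 at 4 and 8 days off, and was not called at 12 days off. At day 0 and at 12 days off the called summit was thus the first and on Dox the second, while at 4 days off both were called. A second gain (chr10:67204923-67205474) had scores between 3.39 and 11.0. The starts printed above differed as well. The downstream start, with 13 CpG, scored 40.1 in CD11b-high cells and 40.7 to 61.6 in the others. The upstream start, with 47 CpG, was not called in CD11b-high cells, at day 4 or at day 12. It scored 4.32 at day 0 and 5.98 at day 8. After withdrawal it scored 11.1, 12.0 and 7.29 at 4, 8 and 12 days off. It was therefore called in the 2 longest lists, and also in the shorter ones of day 0 and of 12 days off.

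Kdm6b, a demethylase that removes the mark written by Polycomb repressive complex 2, had 8 regions, 4 of them open in all 8. It lost 1 region inside the gene (chr11:69411603-69411977), with 4.37 at day 0, 8.97 at 4 days off and 4.80 at 12 days off. Kdm6a, the related demethylase on the X chromosome, had its start open in all 8 (40.3 in CD11b-high cells, 31.6 to 52.2 in the others) and no gain or loss. Kdm1a, also known as LSD1, had 3 regions with its start open in all 8. Kdm5b had 3 regions, none open in more than 3 libraries. Its start region (chr1:134560006-134560394), shared with Mgat4e because the spans of the genes overlap there, scored 3.43 at day 0, 3.23 at day 8 and 3.99 at 4 days off, and was not called in CD11b-high cells or at the other times. None of the 3 Kdm5b regions scored above 7.73.

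The corepressor genes held 34 regions, 28 of them at Bcor, a subunit of a variant Polycomb complex that also binds BCL6. Bcor had 2 gained and 0 lost regions. The first (chrX:12086887-12087965) scored 5.90, 7.65 and 8.92 at day 4, 8 and 12 and 7.27, 6.29 and 5.74 at 4, 8 and 12 days off, and was not called in CD11b-high cells or at day 0. The second (chrX:12122839-12123254) scored 3.25 in CD11b-high cells, 9.35, 7.12 and 4.60 at day 4, 8 and 12, and 8.29 at 4 days off, and was called neither at day 0 nor later off Dox. No called region reached the annotated Bcor start, the nearest being centred 1518 bp inside the gene (chrX:12158448-12159209). That region was called in every library but the CD11b-high one, with scores of 3.92 to 14.2. Bcorl1, its relative, had 3 regions, of which 2 were open in all 8, and Ncor1, the nuclear receptor corepressor, had its start open in all 8, at 23.9 in CD11b-high cells and 10.7 to 40.2 in the others.

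The histone deacetylase genes had 46 regions with 2 gained and 2 lost, which lay at Hdac4, Hdac7 and Hdac9 of class IIa. The class I genes Hdac1 and Hdac2 had only 1 and 2 regions, all open in all 8 libraries. Hdac4 had 21 regions, of which 3 were open in all 8 and 9 in a single library. It gained 2 regions inside the gene. The first (chr1:91984445-91984863) scored 6.92 in CD11b-high cells, 11.1, 14.4 and 13.7 at day 4, 8 and 12, and 20.5 and 3.41 at 4 and 8 days off, and was not called at day 0 or at 12 days off. The second (chr1:92048856-92049223) scored 12.1 in CD11b-high cells, 6.27, 20.7 and 12.8 at day 4, 8 and 12, and 15.9 at 4 days off, with a day-0 summit 345 bp away in the adjoining region. The Hdac4 start was among the highest-scoring regions of the 43 genes, at 43.3 in CD11b-high cells and 42.3 to 81.0 in the others. Hdac7 lost 1 weak region (chr15:97839733-97840131, 4.82 at day 0) that was called again at 4, 8 and 12 days off (8.14, 8.20 and 6.15), with a later summit 446 bp away. Hdac9 had 15 regions over a gene span of 870 kb, of which 7 were called in a single library and 0 in all 8, and it lost 1 (chr12:34432522-34432824, 7.23 at day 0 and 10.8 at 4 days off). A later summit lay within 1 kb of that lost region.

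The nucleosome remodeller genes held 87 regions with 4 gained and 3 lost. Chd7, an ATP-dependent remodeller of enhancers, had 34 regions, 13 of them open in all 8, and was the only one of the 43 genes with 3 gains and 3 losses. The gains lay inside the gene, 9905 bp (chr4:8700014-8700601) and 84597 bp (chr4:8774746-8775253) from the nearer end, and 3716 bp outside it (chr4:8871942-8872388). The last of these scored 12.4 in CD11b-high cells, 5.50, 16.2 and 5.88 at day 4, 8 and 12, and 6.69, 10.7 and 7.57 at 4, 8 and 12 days off, so that it was missing at day 0 alone. The losses had day-0 scores of 4.80, 5.62 and 2.32. Of these only the second (chr4:8745113-8745471) was called again, at 4, 8 and 12 days off (3.86, 5.24 and 4.59), with a later summit 601 bp away. Arid1b, a DNA-binding subunit of the BAF remodelling complex, had 32 regions, 7 of them open in all 8. It gained a region deep inside the gene (chr17:5293732-5294062) that scored 10.4 in CD11b-high cells, 8.87, 22.6 and 9.09 at day 4, 8 and 12, and 11.7 and 5.28 at 4 and 8 days off, and was not called at day 0 or at 12 days off. Arid1a, Smarca4, Smarca2 and Chd4, the other remodellers, had no gain or loss. The Smarca4 start was open in all 8 (33.1 in CD11b-high cells, 24.1 to 63.8 in the others), whereas the region at the Chd4 start was called at day 0, 4, 8 and 12 and at 4 days off only, with scores of 3.73 to 11.1.

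The histone acetyltransferase genes Ep300 and Crebbp, which encode the enhancer coactivators p300 and CBP, had 4 and 3 regions and no gain or loss. At Ep300 a region 891 bp beyond the gene was called in all 8, while 2 regions nearer to the start were called in 1 library each. At Crebbp a region 208 bp beyond the gene was called in all 8, and the region at the start was called at day 0, at day 12 and in each library off Dox, at 2.88 to 12.7. Ctcf, the insulator protein, was called at its start in every library, but in 2 adjoining regions. The first (chr8:105636133-105636619) scored 50.3, 58.6 and 22.7 at day 0, 4 and 12 and 43.5 and 30.2 at 4 and 12 days off. The second (chr8:105636667-105636982) scored 30.2 in CD11b-high cells, 39.1 at day 8 and 39.1 at 8 days off. No library had both, so the lack of a Ctcf region open in all 8 goes with where the summit was placed. Rad21, the cohesin subunit that separase cleaves, had 2 regions, both inside the gene where the span of Gm52217 overlaps it. One was open in all 8 (29.6 in CD11b-high cells, 24.4 to 61.5 in the others). The other (chr15:51990945-51991245) scored 7.46 at day 0 only and counted as lost, with a later summit 727 bp away. It counts as a gene-end region because the end of Gm52217 lay 120 bp from it. Stag2, another cohesin subunit, and Phf6 each had a region at a gene end open in all 8 and no gain or loss.

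Extra calls beside a stable one were seen at the gene ends of these loci. Of the 62 gene-end regions, 18 (29.0%, 18.2 to 41.9) were open in 1 library, against 15.4% of all gene-end regions. Of the 18, 10 lay within 1 kb of a region open in all 8. That last count was not made for all gene-end regions, so whether it is particular to these genes cannot be said. Examples among the 18 were Setd2 (12.0 at day 12 only, 295 bp after the start), Asxl1 (5.77 at day 12 only), Ezh1 (3.75 in CD11b-high cells only) and Kdm1a (4.19 at day 12 only), each beside a start open in all 8. With summits extended by 250 bp before merging, which joins nearby calls, 5 of 45 gene-end regions (11.1%) were open in 1 library, against 9.02% of all. The gap to the background was thus smaller with the wider interval. Other gene-end regions were called in several libraries beside a stable one. At Arid1a, the DNA-binding subunit related to Arid1b, a region 769 bp outside the gene scored 9.21 in CD11b-high cells, 19.2, 14.9 and 8.70 at day 0, 8 and 12, and 28.6 and 12.8 at 4 and 12 days off. At Asxl2 a region 830 bp after the start scored 6.63 in CD11b-high cells, 9.23, 10.1 and 5.04 at day 0, 8 and 12, and 8.26 at 12 days off. At Kmt2a, the gene of the MLL fusions, a region 868 bp outside the gene was called at 4 and 8 days off only (9.42 and 6.91), and at Ncor1 a region 716 bp after the start scored 6.21 in CD11b-high cells, had 4.76 at 8 days off and was not called otherwise.

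The second comparison asked what became of the changed regions after Dox was withdrawn. All 16 gained regions were still open at 4 days off (100%, 79.4 to 100), against 75.6% of all gained regions with a gene. At 8 days off 11 were open (68.8%, 41.3 to 89.0), against 50%, and at 12 days off 7 were (43.8%, 19.8 to 70.1), against 26.9%. The interval at 4 days off lay above the share of all gained regions and the other 2 included it. Equal list lengths and stronger scores were tried on the shares of 4 and 8 days off after these were seen. Equal list lengths gave 16 gained regions, of which 12 (75%) were open at 4 days off, against 59.4% of all gained regions. The same setting gave 50% at 8 days off, against 40%, and 56.2% at 12 days off, against 34.9%. No intervals were computed for this setting. With scores of at least 10, 5 regions were gained, of which 4 (80%), 2 (40%) and 1 (20%) were open at 4, 8 and 12 days off, against 80.8%, 53.2% and 19.4% of all. Among these 5 regions no larger share at these genes was seen. The 16 regions comprised 6 that were open at all 3 times off, at Chd7 (2), Ezh2, Eed, Nsd1 and Bcor. A further 5 were open at 4 and 8 days, 4 at 4 days only, and 1, at Dot1l, at 4 and 12 days. The 14 lost regions comprised 8 called at 4 days off (57.1%, 28.9 to 82.3), against 48.7% of all lost regions with a gene, 6 called at 8 days off (42.9%, 17.7 to 71.1), against 45%, and 4 called at 12 days off (28.6%, 8.39 to 58.1), against 25.5%. The 4 open at 12 days off were at Chd7, Jmjd1c, Kdm6b and Hdac7, and 5 were open at no time off Dox. In CD11b-high cells 13 of 16 gained regions were open (81.2%, 54.4 to 96.0), against 83.7%, and 0 of 14 lost regions, which allows a share of up to 23.2%, against 7.13%. The 3 gained regions that CD11b-high cells lacked were at Chd7, Dot1l and Bcor.

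**Figure D4:**
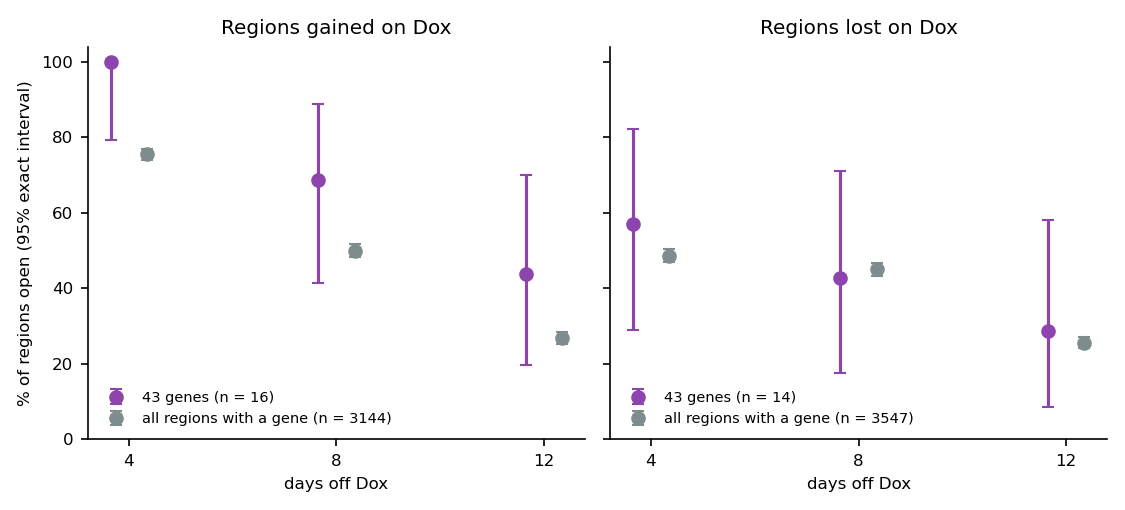
Share of gained (left) and lost (right) regions open at 4, 8 and 12 days off Dox (x axis), for the 43 genes and for all regions with a gene, with exact 95% intervals that cover counting error only. Of the 16 gained regions 16, 11 and 7 were open at the 3 times, and of the 14 lost regions 8, 6 and 4.

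The third comparison set CD11b-high cells beside total cells of day 12. Of the 316 regions, 34 (10.8%) were open in CD11b-high cells only, against 10.5% of all regions with a gene, and 32 (10.1%) in total cells only, against 9.15%. Open in both were 117 (37.0%), against 40.8%. The 2 sides were uneven at single genes, chosen here for their counts. Bcor had 0 regions open in CD11b-high cells only and 6 in total cells only, with 6 of its 28 regions open in CD11b-high cells and 12 in total cells. With lists of equal length these were 5 and 10. Hdac4 had 4 regions open in CD11b-high cells only and 1 in total cells only, and Eed had 3 and 0.

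A related pattern, noticed in the data, was a call in every library but the 2 of day 12. It was found at 7 of the 316 regions (2.22%, 0.895 to 4.51), against 1.19% of all regions with a gene. These were 2 each at Bcor and Arid1b and 1 each at Jmjd1c, Arid1a and Stag2. The 2 day-12 lists had the lowest median scores of the 8, at 9.44 in CD11b-high cells and 9.41 in total cells, and with lists of equal length 1 such region was left, against 0.707% of all. With scores of at least 10 it was found at 6 of 165 regions (3.64%), against 2.25% of all. The cause of the difference between these settings was not tested.

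The fourth comparison asked how the end of the withdrawal compared with the start. Of the 316 regions, 27 (8.54%) were open at 12 days off and not at day 0, against 7.02% of all regions with a gene, and 45 (14.2%) were open at day 0 and not at 12 days off, against 13.1%. Both libraries had 126 (39.9%) open, against 39.0%. With lists of equal length 41 of 248 regions (16.5%) were open at 12 days off only, against 11.6% of all, and 36 (14.5%) at day 0 only, against 12.2%. With scores of at least 10 they were 3 of 165 (1.82%), against 4.07%, and 24 (14.5%), against 15.2%, so that the first share lay above the background in one setting and below it in the other. By gene, Bcor had 2 regions open at 12 days off only and 7 at day 0 only, and Arid1b had 4 and 6. Eed had 1 and 4, Jmjd1c 2 and 3, Kmt2c 0 and 3, Chd7 4 and 2, Ezh2 2 and 0, and Dot1l 2 and 1. These counts by gene come from the lists as deposited, of which that of 12 days off was the shortest. They were not recomputed with lists of equal length.

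**Figure D5:**
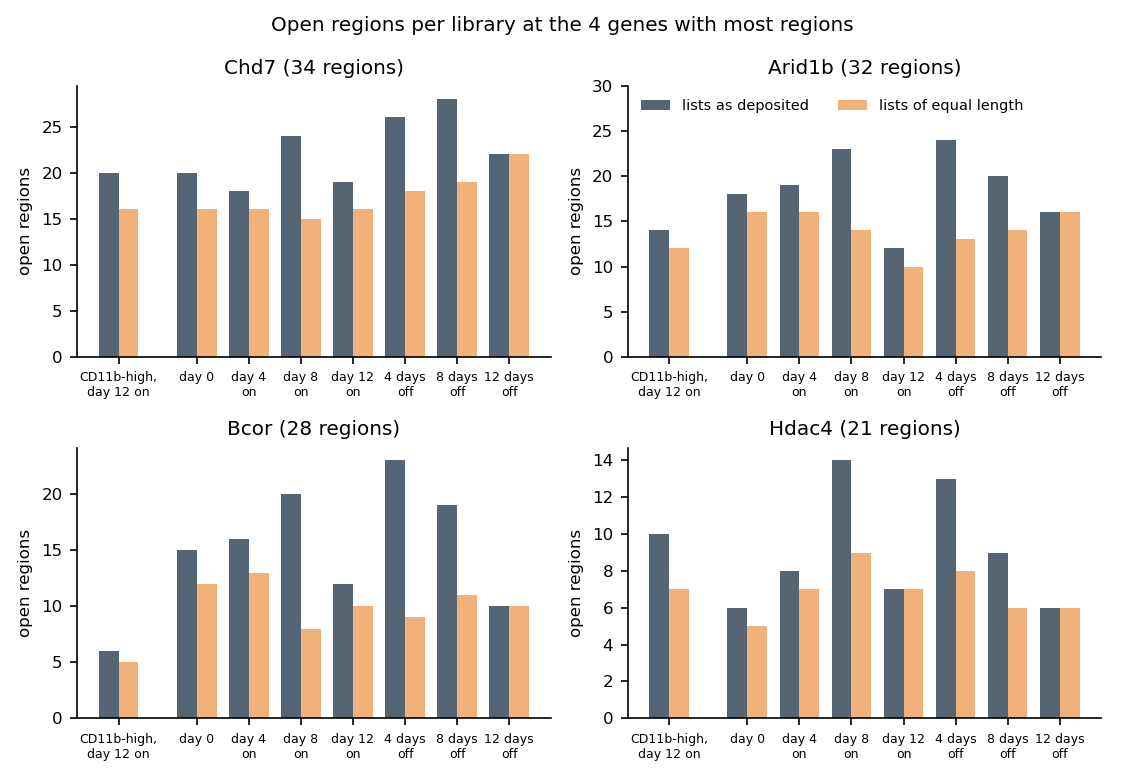
Number of open regions (y axis) in each library (x axis) at Chd7, Arid1b, Bcor and Hdac4, with the lists as deposited (dark bars) and cut to the length of the shortest (light bars). At Bcor CD11b-high cells had 6 open regions and total cells of day 12 had 12, and the high counts of day 8 and of 4 days off at Bcor, Arid1b and Hdac4 shrank with lists of equal length.

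At the 4 loci with most regions the highest counts were in the longer lists, and these peaks were smaller or gone once the lists were cut to equal length. Chd7 had 20 regions open in CD11b-high cells, 20, 18, 24 and 19 at day 0, 4, 8 and 12, and 26, 28 and 22 at 4, 8 and 12 days off. Hdac4 had 10 in CD11b-high cells, 6, 8, 14 and 7 at day 0, 4, 8 and 12, and 13, 9 and 6 at 4, 8 and 12 days off. Bcor had 6 in CD11b-high cells, 15, 16, 20 and 12 at day 0, 4, 8 and 12, and 23, 19 and 10 at 4, 8 and 12 days off. Arid1b had 14 in CD11b-high cells, 18, 19, 23 and 12 at day 0, 4, 8 and 12, and 24, 20 and 16 at 4, 8 and 12 days off. Cut to equal length, the lists gave Chd7 16 open regions in CD11b-high cells and 15 to 22 in the others, the high end being 12 days off. Hdac4 then had 7 in CD11b-high cells and 5 to 9 in the others. Bcor then had 5 in CD11b-high cells, 12, 13, 8 and 10 at day 0, 4, 8 and 12, and 9, 11 and 10 at 4, 8 and 12 days off. Arid1b then had 12 in CD11b-high cells, 16, 16, 14 and 10 at day 0, 4, 8 and 12, and 13, 14 and 16 at 4, 8 and 12 days off.

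A list of 76 other chromatin regulators, chosen by function, gave much the same shares of gained and lost regions. Of its 390 regions, 19 (4.87%) in 14 genes were gained and 17 (4.36%) in 14 genes were lost, beside 5.06% and 4.43% at the 43 genes. Of the 19 gained regions 19, 12 and 6 were open at 4, 8 and 12 days off, and of the 17 lost regions 10, 11 and 3 were. Some other shares differed more, with intervals that overlapped. Lost regions open at 8 days off were 64.7%, beside 42.9% at the 43 genes. Regions open in total day-12 cells only were 6.67%, beside 10.1%. The pattern of every library but those of day 12 held for 0.769%, beside 2.22%. Of the gene-end regions 18.4% were open in 1 library, beside 29.0%.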

How the data were processed

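The deposited lists give 1 base per peak summit and a score. That score was taken as −log10 of p or of q, since each deposited list begins between 1.30 and 1.39, where a cutoff of 0.05 falls, and which of them the authors wrote is unknown here. MACS2 and Picard 2.14.0 served for the authors' processing, with mm10 coordinates, per the submitters' processing notes. Not given in the sources used here: aligner, read depth and MACS2 version. The labels' extraction protocol also mentions ChIP, but the title and library preparation name ATAC-seq. Libraries had 31957 to 51175 summits, and 85 to 121 of each, on other contigs, were not used.

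Summits were extended by 150 bp, so that those up to 300 bp apart merged into 1 region, and each of the 68800 regions was assigned to the nearest of 21887 protein-coding gene spans of a RefSeq table (GRCm38.p6) within 100 kb. Regions at the same distance from several genes were assigned to all of them, as were 5 of the 316, and gene ends were then those of any of them. All 43 genes matched the table by symbol. Gene-end regions had their midpoint within 1 kb of either end. The table holds no exons or introns, which were not analysed here. Gene starts and promoter sequence came from RefSeq's promoter table of the same build. Computation used Python 3.11.15, pandas 2.3.3, numpy 2.4.6, scipy 1.17.1 for Clopper-Pearson intervals and matplotlib 3.10.9. The region and gene assignment was tested on simulated lists.

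The 43 genes, the other lists and the rules were chosen with earlier results of these data known. Named were all genes with a gained or lost region, those whose gene-end region was not open in all 8, the 5 with most regions, and each family. Alternatives were a score of at least 10, lists of equal length, summits extended by 250 bp, a gene within 10 kb, tied regions left out, day 12 alone against day 0 and regions with an opposite summit within 1 kb left out. Chosen after seeing the data were a rule without day 8, counts without Chd7, Arid1b, Bcor and Hdac4, and the tests of list length and score on the shares open at 4 and 8 days off and on the pattern of every library but those of day 12.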

Additional observations from a re-analysis of the deposited data

How the results depend on the processing

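No paired analysis was possible because each group held 1 library. With summits extended by 250 bp, a gene within 10 kb, or tied regions left out, each of the 18 results kept its value within 1.5 times or within its interval. With scores of at least 10, 165 regions were left, of which 5 (3.03%) were gained, against 3.74% of all regions with a gene, and 9 (5.45%) lost, against 5.01%. The 5 include 3 of the 16 gained with all summits and the 9 include 0 of the 14 lost, so these 9 are other regions. In that setting 54 (32.7%) were open from day 0 to day 12, against 32.2%, 44 (26.7%) in all 8, against 27.5%, 12 (7.27%) in CD11b-high cells only, against 7.68%, and 13 (7.88%) in total day-12 cells only, against 7.06%. The regions open at 12 days off only were 3 (1.82%), against 4.07%, and those open at day 0 only were 24 (14.5%), against 15.2%. The share of the open regions of 12 days off that lay at these genes was 0.42% (0.514%), and 40% of the gained regions were open at 8 days off, against 53.2% of all (68.8% and 50% with all summits). Lists of equal length gave 41 of 248 regions open at 12 days off only (16.5%, against 11.6% of all), 1 open in every library but those of day 12 (0.403%, against 0.707%) and 75% of gained regions open at 4 days off, against 59.4%. Day 12 alone against day 0 gave 33 gained (10.4%, against 13.5% of all regions with a gene) and 55 lost (17.4%, against 15.7%). Without regions that had an opposite summit within 1 kb 7 were lost (2.22%, against 4.46%), without the day-8 list 30 were (9.49%, against 8.79%), and without Chd7, Arid1b, Bcor and Hdac4 8 of 201 regions were gained (3.98%, against 4.86%). The cause of each shift beyond fewer regions or fewer conditions was not tested. The unknown read depth limits every call of a region as not open, most of all for scores under 10.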
